A study of Saccharomyces cerevisiae with 6 samples.

Results

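The 7 genes described here code for some of the enzymes of lower glycolysis and of the fermentation of pyruvate to ethanol in the yeast Saccharomyces cerevisiae. In glucose medium these genes are known as highly transcribed. They are TDH3, PGK1, ENO1, ENO2, CDC19, PDC1 and ADH1, chosen by name from 6021 protein-coding genes of the R64 annotation. Their open reading frames (ORFs) were placed at R64 positions on lists of protein-binding clusters. The lists name no genome build, and transcription itself was not measured in them. CDC19 and PDC1 are also loci that the study displays as examples of its binding pattern, so their clusters are not independent evidence of it.

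Binding was measured by ChIP-chip, in which DNA bound to a FLAG-tagged protein is recovered with an antibody and read on a tiling array. There was 1 list of clusters for Thp1-FLAG, 1 for Sac3-FLAG, each from 1 array experiment, and 1 for Rrm3-FLAG in sac3Δ cells, which was taken to combine the 2 repetitions that the methods state. The 2 samples of Rrm3-FLAG in thp1Δ cells, as well as Rrm3 in wild-type cells, were not analysed here. All cultures were asynchronous MATa cells in mid-log growth in YPD, a rich medium, at 30°C. All strains carried a mutant leu2 allele and the alleles his3-11,15, trp1-1, can1-100 and ade2-1. The Thp1 strain (THP1::FLAG::KanMX) and the Sac3 strain (SAC3::FLAG::KanMX) had ura3-1 and the tag at the gene itself. Neither THP1 nor SAC3 was deleted in these strains. The Rrm3 strain joined Rrm3::FLAG to sac3::KanMX, bar1Δ and the ura3::URA3/GPD-Tk(7x) construct. A cluster is a range of positive signal with a P-value below 0.01, and the lists give its start and end but no height. With 1 list per protein there was no replicate against which a difference could be tested, and every value below is a description.

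Glycolysis breaks glucose down to pyruvate, and in fermenting yeast pyruvate is turned into ethanol, which regenerates the NAD+ that glycolysis consumes. In the order of the pathway, TDH3 codes for glyceraldehyde-3-phosphate dehydrogenase, PGK1 for phosphoglycerate kinase, ENO1 and ENO2 for the enolases, CDC19 for pyruvate kinase, PDC1 for pyruvate decarboxylase and ADH1 for alcohol dehydrogenase. Thp1 and Sac3 are subunits of TREX-2, a complex that links transcription to mRNA export at the nuclear pore. Rrm3 is a DNA helicase that helps replication forks through obstacles, and the study used its accumulation on DNA to find such obstacles.

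TDH3 (YGR192C) lies on the minus strand of chromosome VII from 882812 to 883810, and ENO1 (YGR254W) on the plus strand of the same chromosome from 1000927 to 1002240. PGK1 (YCR012W) lies on the plus strand of chromosome III from 137746 to 138996, ENO2 (YHR174W) on the plus strand of chromosome VIII from 451327 to 452640, and CDC19 (YAL038W) on the plus strand of chromosome I from 71786 to 73288. PDC1 (YLR044C) lies on the minus strand of chromosome XII from 232390 to 234081, and ADH1 (YOL086C) on the minus strand of chromosome XV from 159548 to 160594. Together the ORFs measure 9120 bp.

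The positions could be checked roughly on the lists themselves. When all 7 ORFs were moved along their chromosomes in steps of 100 bp, the bases inside Thp1 clusters were highest at the R64 positions, with 85.9% of the ORF bases, and so were those inside Sac3 clusters, with 91.3%. For Rrm3 the cover was 99.0% at the R64 positions and highest after a move of 100 bp, with 99.2%. Moved by 1500 bp or more in either direction, the cover was between 8.61 and 21.0% for Thp1, between 13.4 and 22.1% for Sac3 and between 41.4 and 57.1% for Rrm3. Differences from R64 smaller than the steps of 100 bp would not be seen in this way. A move of 10 bp towards lower coordinates left the Thp1 and Sac3 cover at 85.9 and 91.3%. One common move also cannot show differences that vary between chromosomes. The check takes clusters to lie on ORFs, so its peak is not separate evidence for the cover described below.

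**Figure D1:**
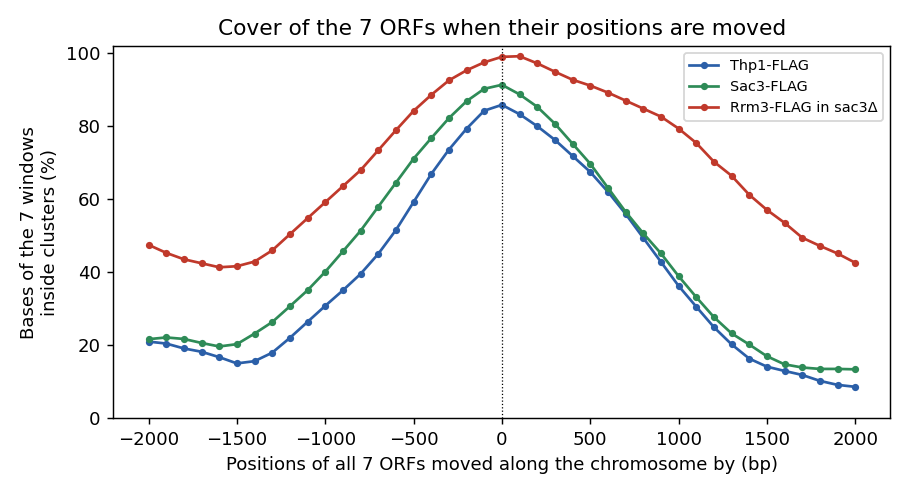
Percent of the bases of the 7 ORFs that lie inside clusters (y axis) when the R64 positions of all ORFs are moved along the chromosome by up to 2000 bp (x axis), for the lists of Thp1, Sac3 and Rrm3 in sac3Δ cells. The Thp1 and Sac3 lines peak at a move of 0, at 85.9 and 91.3%, and the Rrm3 line is at 99.0% there.

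All 7 genes had a cluster in each of the 3 lists, and in each list it was a single cluster per ORF. Every base of the ORF was inside a Thp1 cluster at 5 genes, inside a Sac3 cluster at 4 and inside an Rrm3 cluster at 6. CDC19 counts among them for Thp1 and Sac3 by margins of 4 and 8 bp at its 3′ end, and with the ORFs moved by 10 bp towards higher coordinates the counts for these proteins were 4 and 3. To read these counts, every window of the same length as each ORF was scored on the 16 chromosomes, which takes the place of random windows. At least 1 bp was inside a cluster in 33.5% of these windows for Thp1, 31.8% for Sac3 and 89.0% for Rrm3, so that the 7 of 7 for Rrm3 lies close to the background. Every base was inside a cluster in 3.19% of windows for Thp1, 3.28% for Sac3 and 9.11% for Rrm3. The windows take no account of where genes lie, and ORFs in general were not placed on the lists here.

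The mean cover of windows was 11.1% for Thp1, 11.0% for Sac3 and 43.2% for Rrm3, at each of the ORF lengths. Summed over the genes, the cover of 85.9% for Thp1, 91.3% for Sac3 and 99.0% for Rrm3 was above these means, and so was the cover of each gene. The share of windows covered at least as much as the gene was lowest at PDC1 and highest at PGK1 for Thp1 (2.75 and 8.22%), lowest at PDC1 and highest at ENO1 for Sac3 (2.83 and 6.73%), and lowest at PDC1 and highest at TDH3 for Rrm3 (6.56 and 11.7%). Against windows of the same chromosome only, the order was different. The share was then lowest at CDC19 and highest at PGK1 for Thp1 (2.19 and 9.70%), lowest at CDC19 and highest at PDC1 for Sac3 (2.30 and 6.82%), and lowest at ENO2 and highest at PDC1 for Rrm3 (7.40 and 11.4%). PDC1, with 6.43% for Thp1, was thus not lowest on its own chromosome in any of the lists. At a gene that is covered throughout, the share over the genome depends only on the length of the gene. Windows overlap each other, and these shares are places in a distribution and not P-values.

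**Figure D2:**
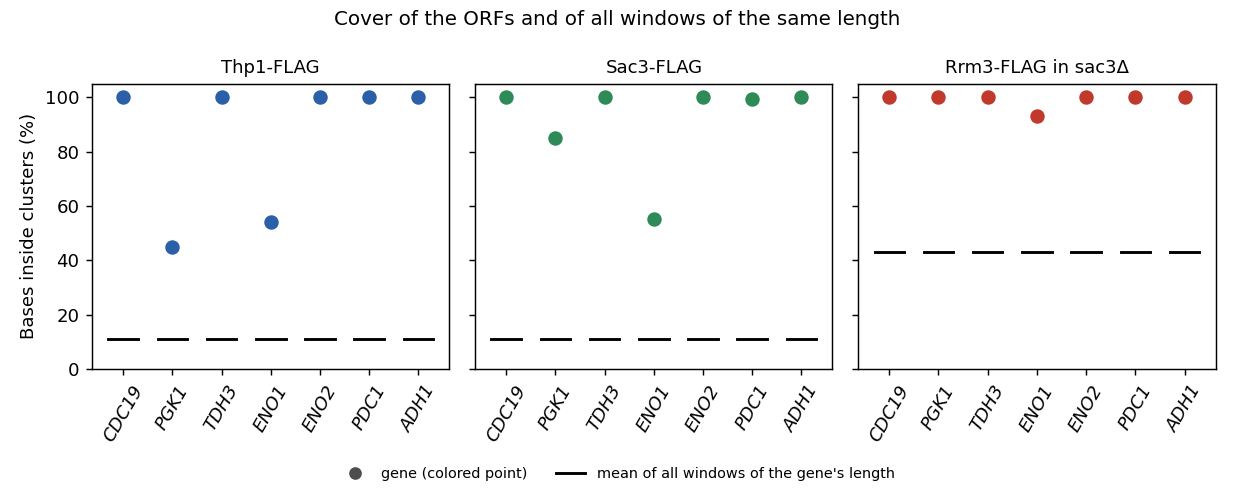
Percent of the bases of each ORF inside clusters (points) for Thp1, Sac3 and Rrm3 in sac3Δ cells, beside the mean of all windows of the same length in the genome (black bars). PGK1 and ENO1 lie lowest for Thp1, at 45.1 and 54.1%, and ENO1 lies lowest for Sac3 and Rrm3, at 55.3 and 93.2%.

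TDH3, which codes for the main form of its enzyme, was covered throughout in the 3 lists. The Thp1, Sac3 and Rrm3 clusters started 21, 25 and 25 bp before the ORF, so that the 5′ edges of all 3 lay within 4 bp of each other. The 3′ edges lay far apart, at 390 bp past the end of the ORF for Thp1, 958 bp for Sac3 and 2646 bp for Rrm3. The next annotated gene there is HIP1, on the opposite strand, so that the 2 genes converge. With 3670 bp, the Rrm3 cluster at TDH3 was the longest of the 7 of its list, and 101 of the 7102 Rrm3 clusters were at least that long.

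PGK1 differed most between the lists in cover. Thp1 covered 564 of its 1251 bp (45.1%), Sac3 1062 bp (84.9%) and Rrm3 the whole ORF. The Thp1 cluster began 650 bp and the Sac3 cluster 189 bp inside the ORF, 461 bp apart, whereas their 3′ edges lay 37 bp short of the end and 29 bp past it. The bases left free by both proteins were thus at the 5′ end. The Rrm3 cluster ran from 63 bp before the ORF to 975 bp past it, towards the convergent gene POL4. Next to the Thp1 cluster of PGK1, 4890 bp upstream and 9789 bp downstream were free of other Thp1 clusters. In the Sac3 list 4449 bp were free upstream, but a cluster of 192 bp followed after 710 bp downstream.

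ENO2 and ENO1 code for enolases of nearly the same sequence, and ENO2 is known as the form that glucose induces. At ENO2 the Thp1 and Sac3 clusters covered the whole ORF, from 150 and 182 bp before it to 43 and 278 bp past it. At ENO1 they covered 711 and 727 of the 1314 bp (54.1 and 55.3%), from 504 and 500 bp inside the ORF to 99 and 87 bp short of its end. Because both ORFs have the same length, they could be compared position by position. Thp1 covered 603 positions at ENO2 only and 0 at ENO1 only, Sac3 587 and 0, and Rrm3 90 and 0. As all 3 lists covered ENO2 throughout, the counts of 0 had to follow. The other counts restate the bases left free at ENO1. The difference in cover (ENO2 minus ENO1) was 45.9 percentage points for Thp1, 44.7 for Sac3 and 6.85 for Rrm3.

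At ENO1 the Thp1 and Sac3 edges agreed within 4 bp at the 5′ side and 12 bp at the 3′ side. With nearly the same sequence, array probes may read DNA from both genes, and their part in these values was not tested. ENO1 was the single gene that Rrm3 did not cover throughout. Its Rrm3 cluster began 90 bp inside the ORF, which left 93.2% covered, and ended 1091 bp past it, towards the convergent gene COQ6. At ENO2 the Rrm3 cluster ran from 248 bp before the ORF to 1264 bp past it, in the direction of CTR2, a gene on the same strand.

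CDC19 had the closest match between the ORF and the TREX-2 clusters. The Thp1 cluster measured 1548 bp for an ORF of 1503 bp, from 41 bp before it to 4 bp past it, and the Sac3 cluster ran from 108 bp before it to 8 bp past it. The Rrm3 cluster was longer on both sides, from 337 bp before to 927 bp past the ORF. Downstream of the CDC19 cluster, 1747 bp were free of Thp1 and 1751 bp free of Sac3.

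PDC1 is the longest of the ORFs, with 1692 bp. Thp1 covered it throughout, from 257 bp before it to 77 bp past it. Sac3 left the first 13 bp free (99.2% covered) and ran 486 bp past the end. PDC1 was the gene at which the Thp1 cluster was not contained in the Sac3 cluster, as it began 270 bp further upstream. The Rrm3 cluster ran from 277 bp before to 1221 bp past PDC1, and the next gene downstream is TRX1, on the same strand.

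ADH1 had the longest Thp1 and Sac3 clusters of the 7 genes, with 2511 and 2730 bp for an ORF of 1047 bp. They began 1188 and 1407 bp before the ORF, towards YOL085C on the same strand, and ended at the same base, 276 bp past the ORF. Only 78 of the 2485 Thp1 clusters and 77 of the 2282 Sac3 clusters were at least that long. The Rrm3 cluster at ADH1 was the shortest of the 7 of its list, with 1686 bp, from 122 bp before to 517 bp past the ORF. ADH1 was the single gene at which the Thp1 and Sac3 clusters reached beyond the Rrm3 cluster. Over the whole lists, 92.0% of Thp1 and 95.7% of Sac3 clusters lay inside an Rrm3 cluster, as did 85.5 and 91.6% of those at least as long as the shortest at these genes, so that the 6 of 7 genes at which they did lie near the background. Of the Thp1 cluster 57.5% and of the Sac3 cluster 52.9% lay inside the Rrm3 cluster of the ORF. A separate Rrm3 cluster of 627 bp lay upstream, after 324 bp without one.

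**Figure D3:**
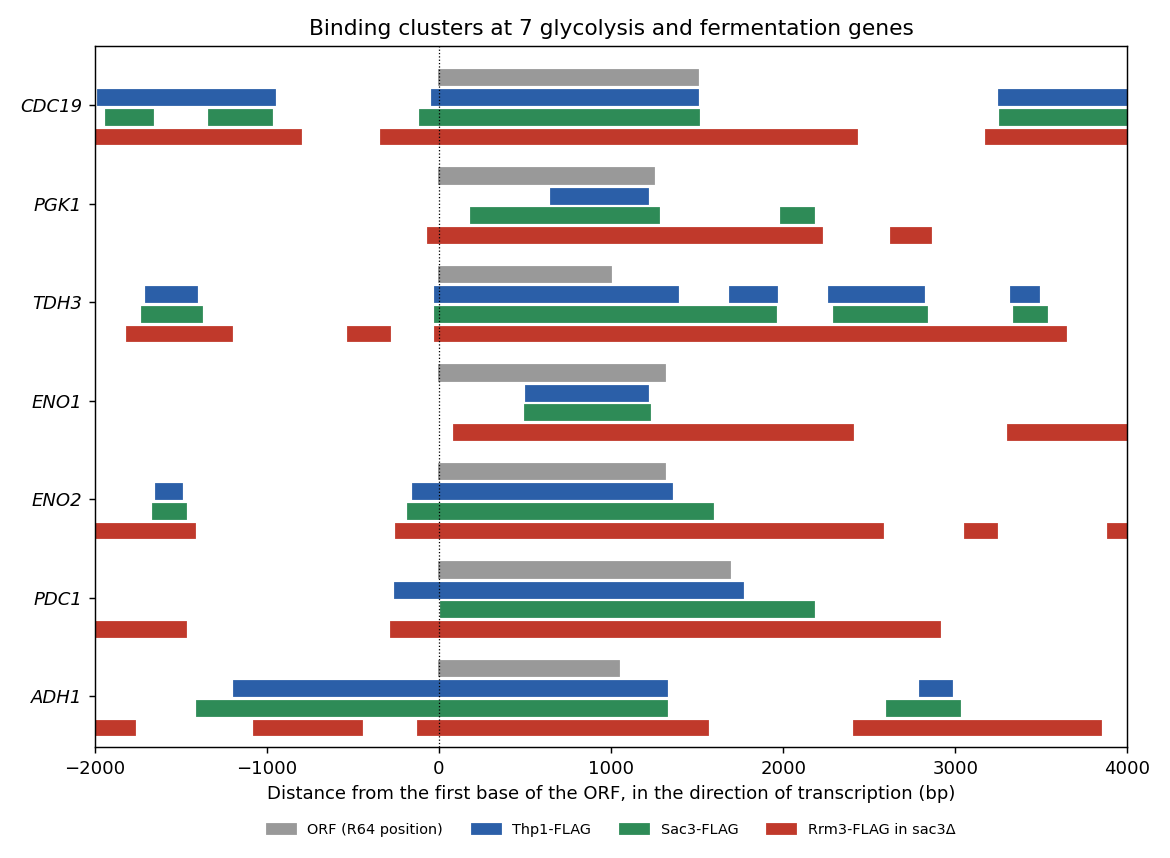
Clusters of Thp1, Sac3 and Rrm3 in sac3Δ cells around each ORF (gray bars, R64 positions), with distance from the first base of the ORF in the direction of transcription on the x axis. Rrm3 clusters run from 517 to 2646 bp past the end of the ORF, and the Thp1 and Sac3 clusters of PGK1 and ENO1 leave the 5′ part free.

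Thp1 and Sac3 clusters were nearly the same set of bases in these ORFs, as they must be where both covered the ORF throughout (CDC19, TDH3, ENO2 and ADH1). They had 7817 ORF bases in common, with 13 in Thp1 clusters only, all at PDC1, and 514 in Sac3 clusters only, of which 498 were at PGK1 and 16 at ENO1. At 6 of 7 genes the whole Thp1 cluster lay inside the Sac3 cluster, against 35.2% of all 2485 Thp1 clusters and 38.3% of the 491 that were at least as long as the shortest at these genes. Those shares were taken over Thp1 clusters with or without a Sac3 cluster at the same place, whereas each of these genes had one. They are therefore not a matched background, and the share among overlapping clusters was not scored. The edges lay a median of 67 bp apart at the 5′ side and 66 bp at the 3′ side, and at most 461 bp (PGK1) and 568 bp (TDH3). They were within 50 bp of each other at 3 genes on the 5′ side (TDH3, ENO1 and ENO2) and at 3 genes on the 3′ side (CDC19, ENO1 and ADH1). The clusters had a median length of 1507 bp for Thp1 and 1774 bp for Sac3, against 265 and 277.5 bp over the whole lists. A cluster that covers an ORF throughout is at least as long as the ORF, which was 999 bp at the shortest (TDH3). These lengths therefore partly restate the cover, and the whole lists are not a matched background for them.

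Along the genes, both TREX-2 proteins left mostly the 5′ part free. The ORFs were divided into 10 equal segments, with 2 segments of the same length added on each side. The mean Thp1 cover was 71.4% ± 48.8 in the first segment (SD across 7 genes), 100% in the seventh to ninth and 85.0% ± 28.9 in the last. For Sac3 it was 70.3% ± 48.1 in the first segment, 100% in the fifth to ninth and 90.5% ± 25.1 in the last. This difference between the 5′ and 3′ parts rested on PGK1 and ENO1, apart from the 13 bp at PDC1, as the other genes were covered throughout. Of the 1290 ORF bases free of Thp1, 1154 (89.5%) were at the 5′ end, and of the 789 free of Sac3, 702 (89.0%). Clusters have no height in these lists, so a gradient within a covered gene could not be seen.

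**Figure D4:**
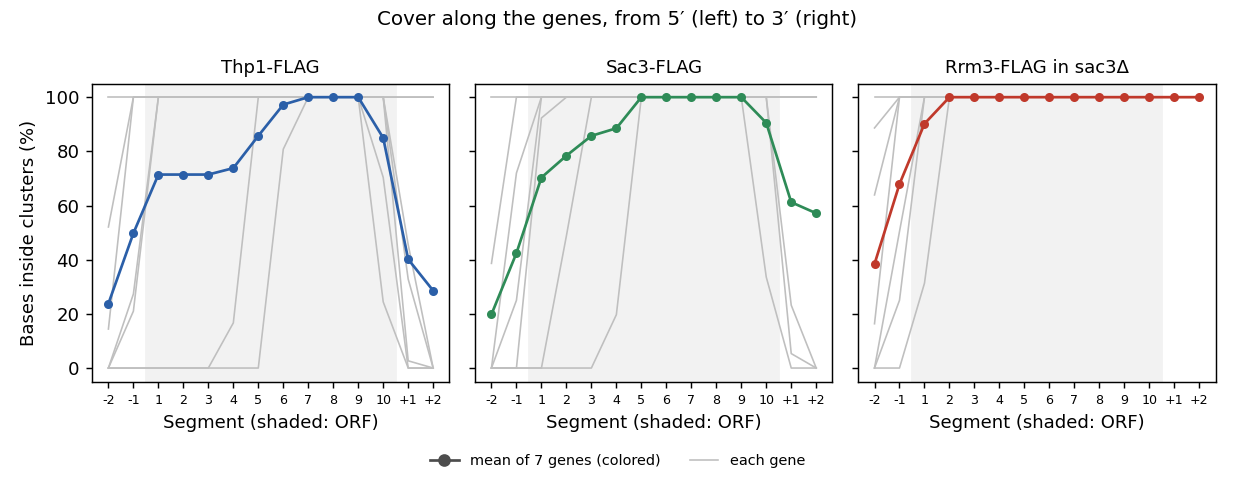
Mean percent of bases inside clusters (colored points) in 10 equal segments of the ORF (shaded) and in 2 segments of the same length on each side, with a gray line for each gene. Thp1 reaches 100% at the seventh segment, Sac3 at the fifth and Rrm3 at the second, and Rrm3 stays at 100% in both segments after the ORF.

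Rrm3 clusters in sac3Δ cells extended past the 3′ end of every gene. Their 3′ edges lay between 517 bp (ADH1) and 2646 bp (TDH3) past the ORF, with a median of 1091 bp, whereas the 5′ edges lay between 337 bp before it (CDC19) and 90 bp inside it (ENO1), with a median of 122 bp before it. At 7 of 7 genes the Rrm3 cluster reached further past the end than before the start. The like counts of 3 for Thp1 and 5 for Sac3 include clusters that lay wholly inside the ORF and reached past neither end. These were the Thp1 clusters at PGK1 and ENO1 and the Sac3 cluster at ENO1. All of the 500 bp downstream of the ORF were inside Rrm3 clusters at 7 of 7 genes, against 38.3% ± 24.1 of the 500 bp upstream (SD across 7 genes). Over the genome, Rrm3 clusters covered 29.6% of windows of 250 bp, 20.7% of windows of 500 bp and 11.7% of windows of 1000 bp throughout. Those windows lie anywhere, whereas each downstream flank borders an ORF end that is itself inside an Rrm3 cluster. They are therefore not a matched background, and windows next to a covered base were not scored. Within 250 bp the downstream cover was also 100%, against 54.7% ± 44.7 upstream, and it was higher downstream at 5 genes and equal at CDC19 and PDC1. Within 1000 bp it was 91.7% ± 17.8 downstream, against 29.5% ± 24.1 upstream, with all bases covered downstream at 4 genes. ADH1 went the other way at this distance, with 51.7% downstream and 67.6% upstream. The 500 bp flank is therefore the one of these 3 at which all genes were fully covered downstream and less so upstream. For Thp1 the downstream and upstream cover of 500 bp was 22.6% ± 31.3 and 27.7% ± 37.1, and for Sac3 45.1% ± 43.6 and 23.3% ± 36.6. Of the bases in the Rrm3 clusters of these genes, 51.8% lay outside the ORF, compared with 23.8% for Thp1 and 31.1% for Sac3.

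**Figure D5:**
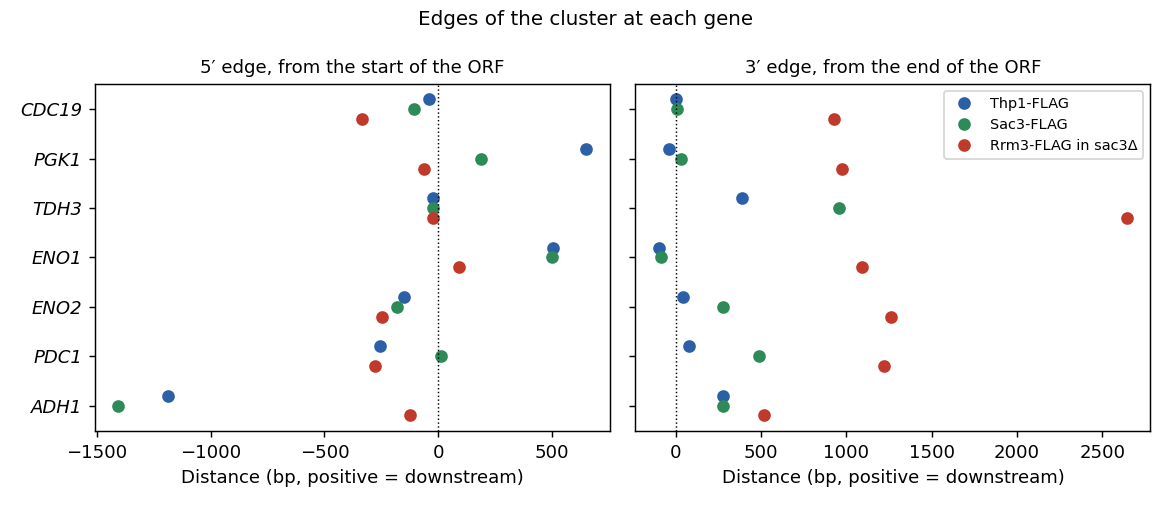
Position of the 5′ edge of the cluster relative to the start of the ORF (left) and of the 3′ edge relative to its end (right), in bp, for Thp1, Sac3 and Rrm3 in sac3Δ cells. All 7 Rrm3 3′ edges lie at least 517 bp past the end, whereas the Thp1 edges lie between 99 bp short of it and 390 bp past it.

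All ORF bases inside a Thp1 or Sac3 cluster were also inside an Rrm3 cluster, as they must be at the 6 genes that Rrm3 covered throughout. At ENO1 only the first 90 bp were free of Rrm3, and the Thp1 and Sac3 clusters began 504 and 500 bp inside the ORF. Rrm3 covered 1200 ORF bases without Thp1 and 699 without Sac3. To set the Rrm3 cover against the genome, windows with at least 50% of their bases in Thp1 clusters and at least 50% in Sac3 clusters were used. This comparison was chosen after the values had been seen. Among the genes, 6 met this condition (all but PGK1), and Rrm3 covered 5 of them throughout. Of the windows that met it, Rrm3 covered 75.5% throughout, with a mean cover of 95.0%. The Rrm3 cover of these genes was therefore close to that of other windows with Thp1 and Sac3, and cannot be called particular to them. Without a list of wild-type cells, nothing here shows whether the Rrm3 clusters differ in the absence of Sac3.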

How the data were processed

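The authors processed Affymetrix tiling arrays in the Tiling Array Suite. Their clusters needed a positive IP/SUP signal with P-values under 0.01 over runs of at least 100 bp, and gaps of up to 250 bp were bridged. Rrm3 data were quantile normalized. The deposited lists hold 2485 (Thp1), 2282 (Sac3) and 7102 (Rrm3 in sac3Δ) starts and ends in bp, with no signal, P-value or genome build. Starts were taken to count from 0. The Rrm3 list, deposited with the series, was put with sac3Δ from its title.

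ORF positions are those of R64 (GCF_000146045.2) for the 7 genes, whose members and lists were chosen with earlier results of these data known. The annotation served otherwise only for names, strands and neighbors. The planned cover of all ORFs, of isozymes, other glycolytic genes, regulators and glucose-repressed genes, and the search for genes with a similar pattern, were therefore not run. All windows of each ORF length were scored instead, over 12069093 bp ending at the highest cluster end of each chromosome. All 7 genes are named, with the next gene where a cluster points to it. Edges are distances in the direction of transcription. No test was run, as there is 1 list per protein, and the number of arrays limits the precision. The counting of windows was checked on simulated lists. Python 3.11.15, numpy 2.4.6, scipy 1.17.1 and matplotlib 3.10.9 were used. Sequences of the genes were not analysed here.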

Additional observations from a re-analysis of the deposited data

How the results depend on the processing

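Of 63 recomputed values, 49 stayed close to those reported and 14 moved. Counts were called close within 1.5 times, and cover within the 95% Wilson interval of its bases. That interval treats adjacent bases as independent, although each ORF held a single cluster. It serves here as a rule for labeling and is no measure of error. All 21 counts of genes with a cluster stayed close, and between 5 of 5 (without ENO1 and ENO2) and 7 of 7 genes had one, apart from Thp1 when at least 50% of the ORF had to be covered, with 6. As 1 bp of overlap sufficed and each overlap was at least 564 bp, the moves and the 300 bp limit could not change these counts. Leaving out ENO1 and ENO2 could only give 5. The 49 values that stayed close thus include many that could not have moved. The counts of genes covered throughout depend on exact positions. With the ORFs moved by 100 bp towards higher coordinates, Thp1 and Sac3 covered 2 genes each, and with a move of 100 bp towards lower ones Thp1 covered 3. The cover of ORF bases was 83.3% for Thp1 and 88.7% for Sac3 after the first move, and 84.3, 90.3 and 97.5% for Thp1, Sac3 and Rrm3 after the second. Without ENO1 and ENO2 it was 89.4, 96.9 and 100%, and with 250 bp added on both sides of each ORF 72.6, 78.7 and 93.0%. Keeping only clusters of at least 300 bp could not change a value, as the shortest cluster at these genes measured 564 bp. Moves of 10 bp, added after the data had been examined, stayed within these limits, but after the move towards higher coordinates Thp1 covered 4 genes throughout and Sac3 3. The R64 chromosome lengths planned for the windows were not used here. No paired analysis was possible because each protein had a single list, and no replicate could be left out.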

Other observations

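The distance to the next cluster differed between the genes. Gaps over the whole lists were not scored, so none of these distances can be called large or small. Next to ENO1, no other Thp1 cluster lay within 2792 bp upstream and 7249 bp downstream, and no other Sac3 cluster within 2688 and 7293 bp. Next to PDC1, the nearest downstream clusters of Thp1 and Sac3 lay 11466 and 11011 bp away, and those were long, with 5624 and 5670 bp. At TDH3, by contrast, a Thp1 cluster of 272 bp followed after 304 bp and a Sac3 cluster of 544 bp after 336 bp, both within the stretch that the single Rrm3 cluster of 3670 bp covered. An Rrm3 cluster of 239 bp lay 261 bp upstream of that cluster. Upstream of CDC19, a cluster of each protein (1028 bp for Thp1, 367 bp for Sac3 and 2177 bp for Rrm3) lay 912, 860 and 461 bp from the cluster of the gene. These values were looked for after the lists had been seen.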
